A study of Homo sapiens with 4 samples.

Results

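The data describe 10 genes of the YAP/TEAD pathway in oral cancer cells with and without the RNA-binding protein STAU1. They are the coactivators YAP1 and WWTR1 (also called TAZ), the DNA-binding factors TEAD1 and TEAD4, the Hippo kinase LATS2, the LIM protein AJUBA, the angiomotin AMOTL2, and the target genes ANKRD1, CCN1 (also called CYR61) and CCN2 (also called CTGF). The 10 genes were matched by symbol to 10 of the 67008 Ensembl genes in the count table, and each had enough reads to be among the 14303 genes tested. They were chosen by name with the values of the same knockdown comparison already known, ANKRD1 as a gene that fell strongly, so their values are a description with no test.

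The study asked how RNA-binding proteins act on a circular RNA of the SNX5 gene, and RNA sequencing compared control cells with cells depleted of STAU1, a protein that binds double-stranded RNA. SAS cells, a line from a human tongue squamous carcinoma, were infected with a virus that carried an shRNA against luciferase (shLuc, called Ctrl, 2 libraries) or an shRNA against STAU1 (shSTAU1, 2 libraries). Every library came from infected cells of WT genotype in serum-containing medium, and total RNA was enriched for coding exons with the TruSeq RNA Exome kit. A single shRNA against STAU1 is represented, without a rescue, and the labels do not say that the libraries of a group came from separate cultures, so the spread between them may be technical.

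The Hippo pathway is a kinase cascade in which MST kinases activate LATS kinases, and LATS kinases phosphorylate YAP1 and WWTR1 and keep them out of the nucleus. When the cascade is low, the coactivators enter the nucleus, bind TEAD factors and switch on genes of growth, adhesion and matrix, often beside AP-1 factors. In squamous cancers, YAP1 is known as a driver of growth and invasion. Phosphorylation and nuclear entry are not measured by gene counts, so the data bear on RNA levels only.

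ANKRD1 and CCN2 are classical targets whose promoters hold several copies of the TEAD motif, and they are shown because ANKRD1 fell most of the 10 genes while CCN2 overlapped between the groups. The stretches below come from RefSeq promoter windows on GRCh38.p14, both on the minus strand, written 5′ to 3′, with matches to the TEAD motif GGAATG and to the AP-1 motif TGANTCA in capitals. The first ANKRD1 stretch lies at chr10:90921276-90921337, the second at chr10:90921197-90921226, and the CCN2 stretch at chr6:131951433-131951562.
ANKRD1 distal: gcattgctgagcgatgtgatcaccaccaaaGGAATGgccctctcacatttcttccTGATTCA
ANKRD1 proximal: acactgagtctGGAATGaaaattcacctgc
CCN2: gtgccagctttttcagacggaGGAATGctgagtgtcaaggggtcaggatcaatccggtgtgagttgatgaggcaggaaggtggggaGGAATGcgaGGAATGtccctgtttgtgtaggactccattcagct

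Counted from the RefSeq start site, the TEAD matches of ANKRD1 begin at positions -220 and -128, and its AP-1 match at -195. The TEAD matches of CCN2 begin at -169, -104 and -95, and no AP-1 match lies in its window. GENCODE 29 places the start of ANKRD1 189 bases further upstream than RefSeq, so the proximal stretch lies within the first exon of that annotation. RefSeq windows of 250 bases before to 50 bases after the start site were at hand for 7 of the 10 genes, which leaves CCN1, TEAD1 and TEAD4 not analysed here. Searched on both strands, a TEAD match was found in 6 of their 10 windows, at least 1 for ANKRD1, CCN2, YAP1, LATS2, AJUBA and AMOTL2, against 14.0% of 35116 RefSeq windows. At least 2 TEAD matches were held by 1.36% of all windows and at least 3 by 0.125%. An AP-1 match was found for ANKRD1 alone among the 7 genes, against 7.71% of all windows. The CArG box, the binding motif of the serum response factor SRF, was found for 0 of the 7 and in 1.29% of all windows. A match of letters is not a site shown to be bound.

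**Figure D1:**
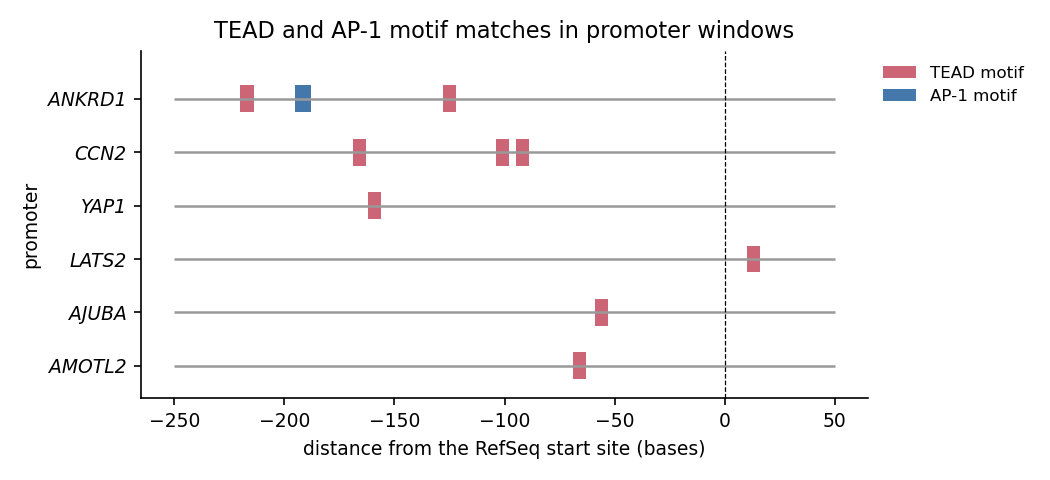
Matches to the TEAD motif (red) and the AP-1 motif (blue) in promoter windows from 250 bases before to 50 bases after the RefSeq start site (dashed line), for the 6 genes with a TEAD match. ANKRD1 holds TEAD matches at -220 and -128 around an AP-1 match at -195, CCN2 holds TEAD matches at -169, -104 and -95, and YAP1, LATS2, AJUBA and AMOTL2 hold 1 each.

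The cell line field of the labels names C3H 10T1/2, a mouse fibroblast line, while the organism is given as human, the cell type as an oral cancer line and the growth protocol as SAS cells. All 9 squamous markers listed (KRT5, KRT6A, KRT14, KRT17, TP63, SFN, CDH1, DSG3 and ITGB4) had at least 10 counts in every library. Their summed level was 7772 to 8200 CPM (counts scaled to library size, with TMM factors) in Ctrl and 8565 to 11619 in shSTAU1. Of 8 fibroblast markers, 2 had at least 10 counts in every library, the summed level was 17.9 to 22.8 CPM in Ctrl and 10.2 to 11.1 in shSTAU1, and THY1 was at 0. Of 4 endothelial markers, 2 had at least 10 counts in every library, and PECAM1 and KDR had 3 counts or fewer in every library. The endothelial markers summed to 15.3 to 18.0 CPM in Ctrl and 7.44 to 17.0 in shSTAU1. Of 5 blood markers, 0 reached 10 counts in every library (summed level 0.153 to 0.178 CPM in Ctrl and 0.707 to 1.15 in shSTAU1, with HBB at 0). The part of these cells in the results below was not tested, and in bulk RNA fewer cells of a type cannot be told apart from less RNA per cell.

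The totals ran from 32206655 to 36301574 counts per library. STAU1 stood at 248.5 and 250.8 CPM in the Ctrl libraries and at 41.6 and 41.5 CPM in the shSTAU1 libraries, which is 16.6% of the control mean (log2 fold change -2.59, SE 0.13, adjusted p = 0.00103 by edgeR's quasi-likelihood test with Benjamini-Hochberg adjustment over the 14303 genes). At an adjusted p below 0.05, 372 genes (2.60%) passed, 161 of them higher (1.13%) and 211 lower (1.48%) in shSTAU1. Scaled by total counts alone, the libraries gave 132 higher and 272 lower calls. DESeq2, which differs in model, scaling and filter, called 800 higher (6.50% of 12301 genes with an adjusted p) and 637 lower (5.18%), and limma-voom 154 higher (1.08%) and 209 lower (1.46%). Without regard to a test, both shSTAU1 libraries were below both Ctrl libraries for 28.0% of the tested genes and above both for 28.5%.

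ANKRD1 fell to 11.3% of its control level in shSTAU1 cells, while the other 9 genes stayed between 61.9% (WWTR1) and 118% (TEAD4). Set against those shares of all genes, 1 of the 10 genes (ANKRD1) is among the lower calls, 6 had both shSTAU1 libraries below both Ctrl libraries, 1 had both above, and 3 overlapped. DESeq2 also put CCN1 among its lower calls (2 of the 10, beside 5.18% of all genes). Nothing is read from these counts, since the genes were selected with these values in view. The median log2 fold change of the 10 genes was -0.24, beside 0.0059 for all tested genes.

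**Figure D2:**
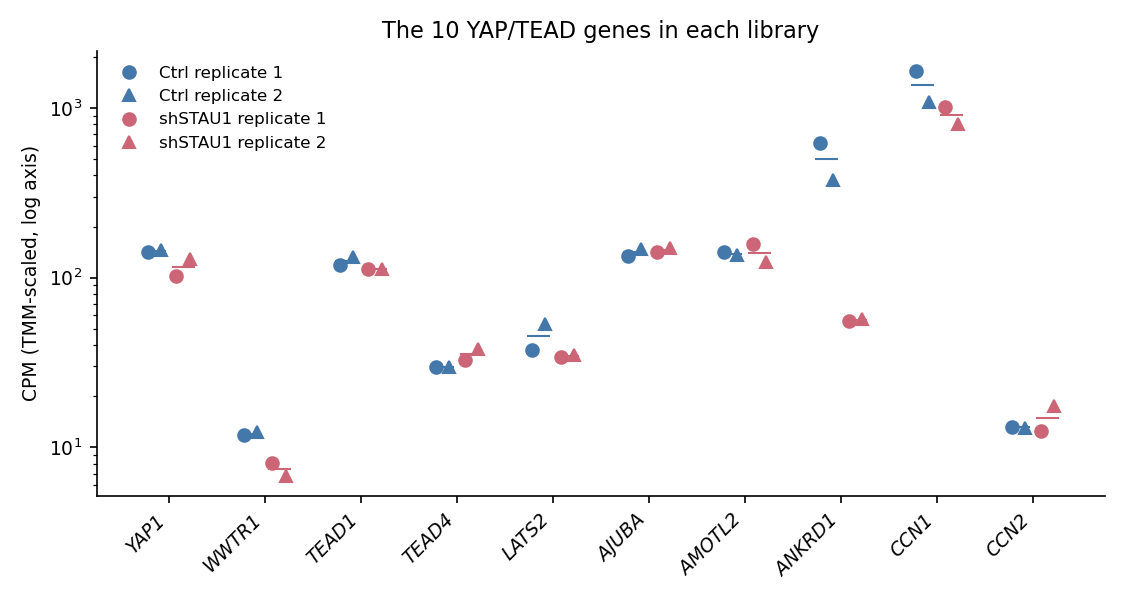
CPM of the 10 genes in each library on a log axis, with circles for replicate 1, triangles for replicate 2 and a line at each group mean of 2 libraries. Both shSTAU1 libraries of ANKRD1 lie at 55.6 and 57.1 CPM, under Ctrl libraries at 378.4 and 622.9 CPM, while AJUBA, AMOTL2 and CCN2 overlap between the groups.

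YAP1 (ENSG00000137693, chr11:102110461-102233423, plus strand), the main coactivator of the pathway, had 141.3 and 146.2 CPM in Ctrl and 102.2 and 128.0 CPM in shSTAU1. The groups did not overlap, and the shSTAU1 libraries differed from each other by more than the Ctrl libraries did. The log2 fold change was -0.32 (SE 0.15), from a mean of 144 ± 3.48 to 115 ± 18.2 CPM (SD, n = 2). WWTR1 (ENSG00000018408, chr3:149517235-149736714, minus strand), the paralog of YAP1, had 11.8 and 12.3 CPM in Ctrl and 8.12 and 6.82 CPM in shSTAU1. Both knockdown libraries lay under both controls, at 61.9% of the control mean (log2 fold change -0.69, SE 0.21), on 241 to 403 counts per library.

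Of the TEAD factors, which carry the coactivators to DNA, TEAD1 (ENSG00000187079, chr11:12674591-12944483, plus strand) had 119.3 and 131.6 CPM in Ctrl and 112.3 and 113.1 CPM in shSTAU1. The knockdown libraries were lower, with a gap between the groups smaller than the difference between the controls (log2 fold change -0.15, SE 0.13). TEAD4 (ENSG00000197905, chr12:2959330-3040673, plus strand) had 29.9 CPM in both Ctrl libraries and 32.5 and 38.2 CPM in shSTAU1. It was the single gene of the 10 with both knockdown libraries above both controls, with a log2 fold change of 0.24 (SE 0.16).

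LATS2 (ENSG00000150457, chr13:20973032-21061547, minus strand) encodes a kinase that holds YAP1 back and is itself a target gene of YAP1, a feedback loop. It had 37.7 and 53.1 CPM in Ctrl and 33.8 and 34.8 CPM in shSTAU1. The groups did not overlap, but the lower control lay much nearer to the knockdown libraries than to the other control. The log2 fold change of -0.40 (SE 0.19) was -0.13 without Ctrl replicate 2. AJUBA (ENSG00000129474, chr14:22971174-22982642, minus strand), which binds LATS kinases and holds them back, had 134.4 and 148.4 CPM in Ctrl and 142.0 and 148.8 CPM in shSTAU1. AMOTL2 (ENSG00000114019, chr3:134355874-134375479, minus strand), a YAP1-binding inhibitor and target gene, had 140.8 and 135.5 CPM in Ctrl and 157.4 and 123.0 CPM in shSTAU1. Both genes overlapped between the groups, with log2 fold changes of 0.04 (SE 0.13) for AJUBA and 0.02 (SE 0.15) for AMOTL2, and for each the sign turned when libraries were scaled by total counts.

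ANKRD1 (ENSG00000148677, chr10:90912096-90921276, minus strand) encodes a nuclear ankyrin-repeat protein known from stretched heart muscle, and is among the genes most often used to read out YAP activity. It had 20960 and 12396 counts in the Ctrl libraries (622.9 and 378.4 CPM) and 1937 and 2019 counts in the shSTAU1 libraries (55.6 and 57.1 CPM). The groups lay far apart, the knockdown libraries were nearly equal, and the controls differed 1.65-fold from each other. The mean went from 501 ± 173 to 56.4 ± 1.06 CPM (SD, n = 2), 8.88-fold lower, with a log2 fold change of -3.15 (SE 0.24). The fold change kept its sign when any single library was left out, from -3.46 to -2.75, the latter without Ctrl replicate 1, where 0 genes passed the threshold by edgeR (1502 at an unadjusted p below 0.05).

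Among all 14303 tested genes, 0.140% had a lower log2 fold change than ANKRD1. Of the 1967 tested genes that averaged 100 CPM or more in Ctrl, ANKRD1 had the lowest log2 fold change, and STAU1 came next at -2.59. That floor was set on Ctrl alone, where ANKRD1 is high, and ANKRD1 was chosen as a gene that fell. Its rank is a description and supports nothing further. By the shape of the log2 CPM profile over the 4 libraries, genes near to ANKRD1 in a pool of 7727 named genes at 10 CPM or more were STAU1 (distance 0.735), the cadherin CDH11 (0.980), kynureninase KYNU (1.09) and the netrin NTN4 (1.13). Their log2 fold changes were -2.25 for CDH11, -2.26 for KYNU and -2.19 for NTN4, all smaller in size than that of ANKRD1. With 4 libraries in 2 groups, a short distance says little more than that a gene fell to a like degree.

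**Figure D3:**
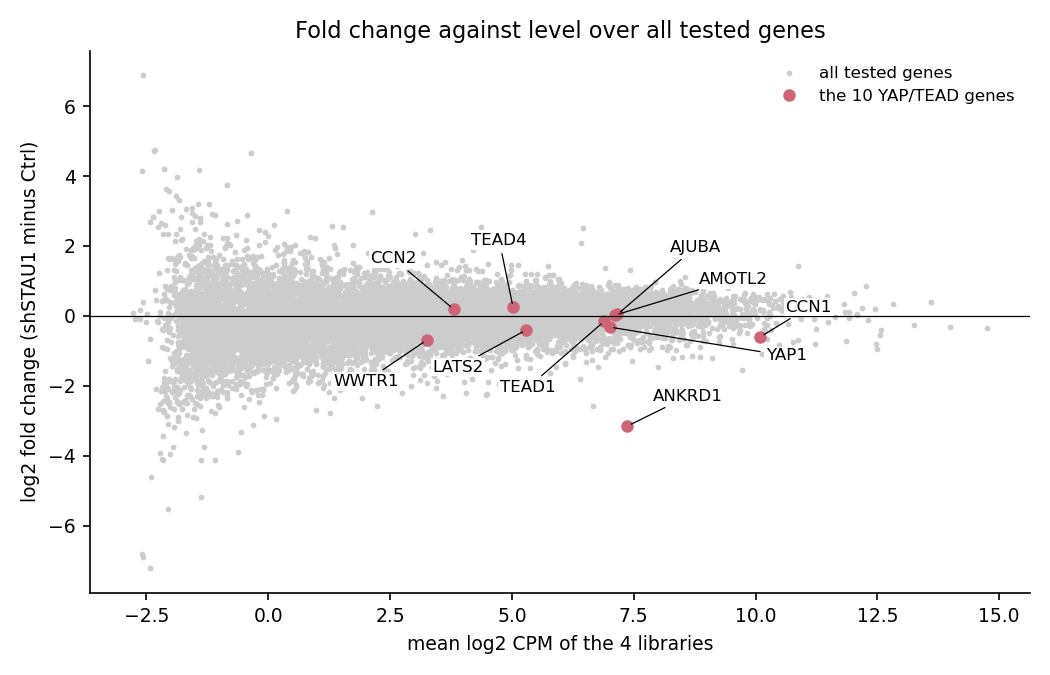
Log2 fold change (shSTAU1 minus Ctrl) against mean log2 CPM of the 4 libraries for the 14303 tested genes (grey) and the 10 YAP/TEAD genes (red). ANKRD1, chosen as a gene that fell, lies at -3.15, and the other 9 lie between -0.69 and 0.24.

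The genes around ANKRD1 were read for the same direction. Within 500000 bases, 4 other genes were tested, and 0 passed the adjusted threshold by edgeR, beside 2.60% of all tested genes. The nearest, RPP30, an RNase P subunit gene that ends 3543 bases away, had a log2 fold change of 0.26 (SE 0.24, adjusted p = 0.532). HECTD2, 488004 bases away, had -1.21 (SE 0.26, adjusted p = 0.0542), PCGF5 had -0.35 (SE 0.16, adjusted p = 0.233), and HTR7 had -1.03 (SE 0.54, adjusted p = 0.277) on 14 to 43 counts. RPP30 overlapped between the groups, and the other neighbours had both shSTAU1 libraries below both controls, as did 28.0% of all tested genes. With 4 neighbours, nothing is read from this about the region.

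CCN1 and CCN2 encode secreted matricellular proteins of a single family, both immediate targets of YAP1. CCN1 (ENSG00000142871, chr1:85580761-85583962, plus strand) had 1650 and 1088 CPM in Ctrl and 1006 and 802 CPM in shSTAU1. Both knockdown libraries were under both controls, but the higher of them lay close to the lower control. The log2 fold change was -0.60 (SE 0.21) and ran from -0.86 to -0.27 when single libraries were left out, the latter without Ctrl replicate 1. CCN2 (ENSG00000118523, chr6:131948176-131951373, minus strand) had 13.3 and 13.0 CPM in Ctrl and 12.5 and 17.4 CPM in shSTAU1. The knockdown libraries lay on both sides of the controls, and the log2 fold change of 0.19 (SE 0.22) was -0.081 without shSTAU1 replicate 2. ANKRD1 and CCN1 were both higher in Ctrl replicate 1 than in Ctrl replicate 2, 1.65-fold and 1.52-fold, whereas LATS2 was at 0.709 times, and the other 7 genes were at 0.906 to 1.04 times.

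Levels of different genes were set side by side as TPM (counts per length, scaled to an equal total in each library) over the union of annotated exons. The libraries were enriched for coding exons, and how evenly different genes were captured is not known here. Ratios between genes are therefore rough and depend on the length used. On this scale, the Ctrl level of YAP1 was 95.8 ± 2.51 TPM and that of WWTR1 6.02 ± 0.179 TPM. The ratio was 15.9, and 10.2 by coding length, so YAP1 had the higher counts per length by either. In shSTAU1, the levels were 71.3 ± 9.77 TPM for YAP1 and 3.47 ± 0.504 TPM for WWTR1. The 4 TEAD factors were all present, with Ctrl levels of 55.2 ± 0.168 TPM for TEAD4, 51.2 ± 3.64 for TEAD1, 34.6 ± 0.805 for TEAD3 and 17.3 ± 2.34 for TEAD2. TEAD1 was 0.928 ± 0.0631 times TEAD4 within the Ctrl libraries on this scale, and 3.49 times by coding length, so their order rests on the length used. The kinase LATS1 had 55.0 ± 2.43 TPM in Ctrl and 43.6 ± 3.35 TPM in shSTAU1, and LATS2 had 34.1 ± 8.27 and 24.0 ± 0.0243 TPM.

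The target genes other than LATS2, given above, and the LATS inhibitor AJUBA spanned a wide range on the same scale, with the same limit of capture. In Ctrl, CCN1 had 2340 ± 674 TPM, ANKRD1 1061 ± 365, AJUBA 99.3 ± 7.14, AMOTL2 96.9 ± 2.44 and CCN2 23.6 ± 0.234 TPM. AJUBA and AMOTL2 do not differ beyond their spread, and CCN1 and ANKRD1 have wide errors and were both higher in Ctrl replicate 1. Within each library, CCN1 was 2.23 ± 0.130 times ANKRD1 in Ctrl and 13.0 ± 2.30 times in shSTAU1, where ANKRD1 had 111 ± 0.310 TPM and CCN1 1441 ± 260 TPM. CCN1 was 99.1 times CCN2 in Ctrl.

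**Figure D4:**
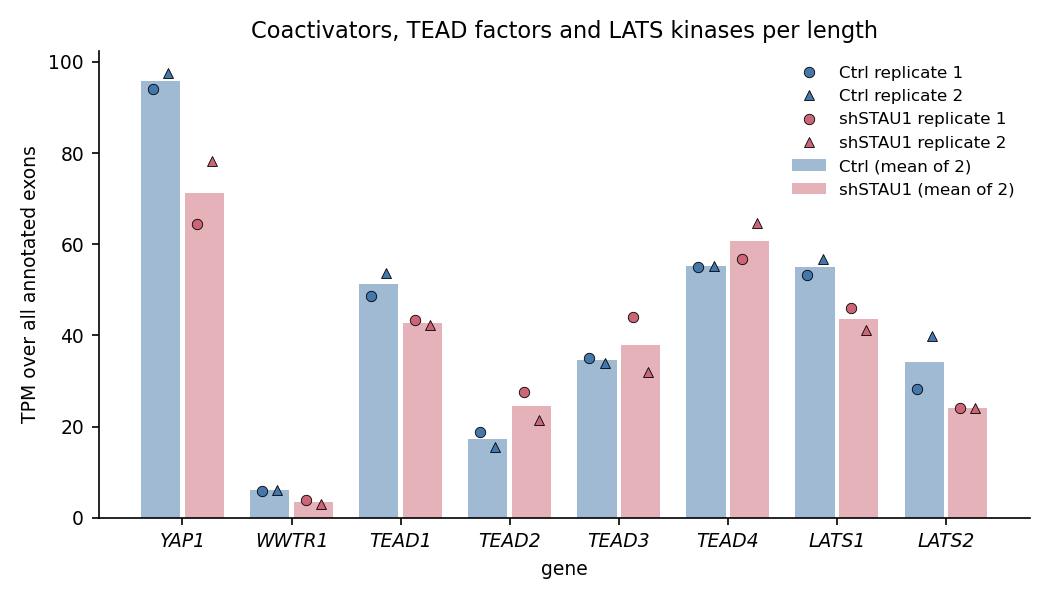
TPM over all annotated exons for the coactivators, the TEAD factors and the LATS kinases, with bars at the mean of 2 libraries from 0 and points for each library. YAP1 stands at 95.8 TPM in Ctrl against 6.02 TPM for WWTR1, and the TEAD factors range from 17.3 (TEAD2) to 55.2 TPM (TEAD4).

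Few counts were given to the genes that overlap the 10 genes. How reads in shared exons were counted is not given, so reads shared or dropped cannot be seen. Exons of other annotated genes cover 10.0% of the exon bases of YAP1, 9.45% of WWTR1 (its antisense gene WWTR1-AS1, with 2 counts over the 4 libraries), 8.34% of CCN2, 3.12% of AMOTL2 (the pseudogene RPL39P5, 109 counts) and 0.836% of AJUBA, and 0 of ANKRD1, CCN1, TEAD1, TEAD4 and LATS2. The partners of YAP1, CCN2 and AJUBA had 0 counts. The strand setting of the counting is not given in the sources used here.

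Among 17 further published target genes of YAP1 and WWTR1, NT5E and DOCK5 fell and IGFBP3 rose. All 17 were tested, and these calls by the adjusted threshold of edgeR (1 higher, 2 lower) stand beside backgrounds of 1.13% and 1.48%. DESeq2 called 1 higher and 3 lower (6.50% and 5.18% of all genes), and limma-voom 0 higher and 2 lower (1.08% and 1.46%). Both shSTAU1 libraries were below both controls for 9 and above for 2, beside 28.0% and 28.5% of all tested genes, 14 had a log2 fold change below 0 (7092 of all 14303), and the median log2 fold change was -0.23. NT5E, the surface enzyme CD73 that makes adenosine, had 332 and 302 CPM in Ctrl and 134 and 191 CPM in shSTAU1. It fell to 51.3% (log2 fold change -0.96, SE 0.18, adjusted p = 0.0413 by edgeR).

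DOCK5, an exchange factor for the GTPase RAC, had 309 and 330 CPM in Ctrl and 162 and 176 CPM in shSTAU1, and fell to 52.8% (log2 fold change -0.92, SE 0.13, adjusted p = 0.0298 by edgeR). IGFBP3, a secreted binding protein of insulin-like growth factors, moved the other way, from 9.27 and 8.82 CPM to 77.0 and 28.6 CPM. Its libraries were apart by group but the shSTAU1 libraries were far from each other (log2 fold change 2.54, SE 0.42, adjusted p = 0.0358 by edgeR). All 3 calls were lost without the filter on low counts (adjusted p = 0.0892 to 0.119) and without Ctrl replicate 1 (adjusted p = 0.490 each), those of NT5E and DOCK5 without Ctrl replicate 2 (adjusted p = 0.104 and 0.123), that of NT5E with the length and GC correction (adjusted p = 0.0531), and that of IGFBP3 by limma-voom (adjusted p = 0.0540).

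**Figure D5:**
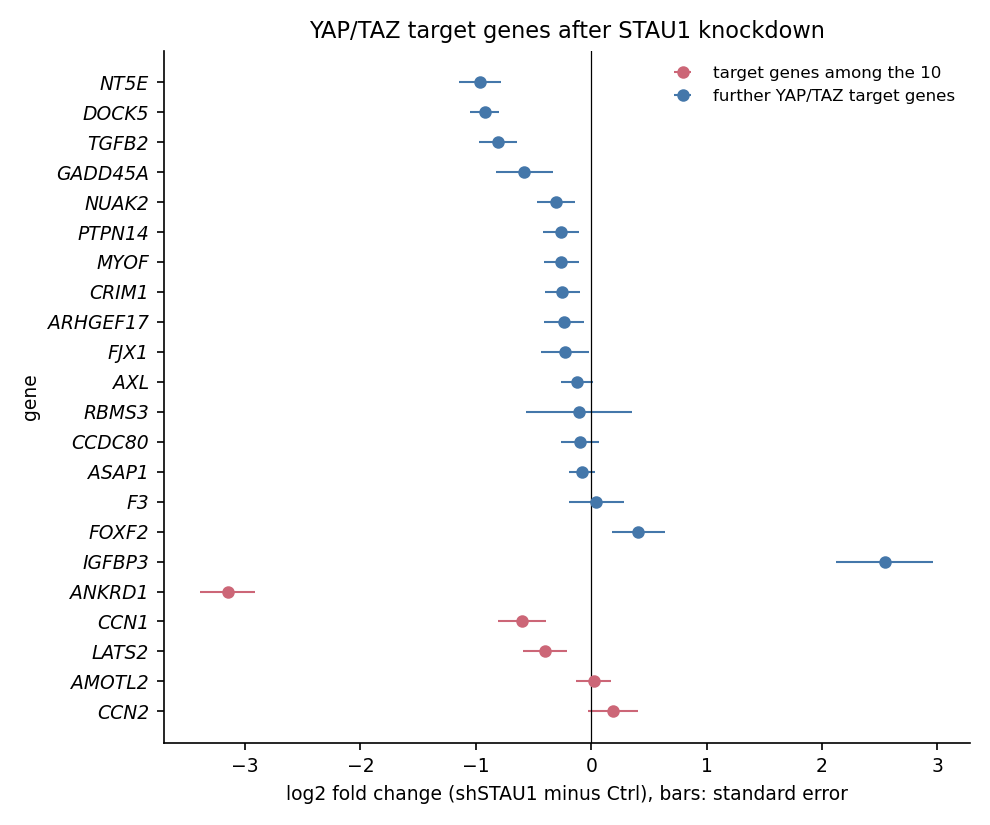
Log2 fold changes (shSTAU1 minus Ctrl) with standard errors for 5 target genes among the 10 (red) and 17 further published target genes of YAP1 and WWTR1 (blue). ANKRD1 at -3.15 and IGFBP3 at 2.54 lie at the ends, NT5E at -0.96 and DOCK5 at -0.92 are the other genes that passed the test among the 17, and the rest of the 17 lie between -0.81 (TGFB2) and 0.41 (FOXF2).

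Upstream of YAP1, the Hippo cassette and its regulators gave no call by edgeR. Of 21 listed genes, 19 were tested and 0 passed the adjusted threshold, beside 2.60% of all tested genes. An unadjusted p below 0.05 by edgeR was found for 4 of the 19, beside 3509 of all 14303. DESeq2 called 2 higher and 0 lower, beside 6.50% and 5.18% of all genes, and limma-voom 0, beside 1.08% and 1.46%. Both shSTAU1 libraries were below both controls for 8 of them and above for 5, beside 28.0% and 28.5% of all tested genes, with a median log2 fold change of -0.087. The most abundant by CPM were the scaffold WWC1 (697 and 812 CPM in Ctrl, 691 and 812 in shSTAU1, log2 fold change -0.0052, SE 0.14), the phosphatase PTPN14 (-0.26, SE 0.16) and the kinase MAP4K4 (0.23, SE 0.13).

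Other TEAD factors and partners of YAP1 and TEAD were called neither higher nor lower. Of 12 listed, 10 were tested, and 0 passed by edgeR, beside 2.60% of all tested genes. DESeq2 and limma-voom also called 0. Their shares of all genes were 6.50% higher and 5.18% lower by DESeq2, and 1.08% and 1.46% by limma-voom. By edgeR, 1 of the 10 had an unadjusted p below 0.05, beside 3509 of all 14303. The median log2 fold change was 0.19, and -0.028 without shSTAU1 replicate 1. Among the most abundant were the chromatin remodeller SMARCA4 (474 and 489 CPM in Ctrl, 550 and 580 in shSTAU1, log2 fold change 0.23, SE 0.12, adjusted p = 0.269 by edgeR) and the angiomotin AMOTL1 (-0.21, SE 0.13, adjusted p = 0.352). ZYX, AMOT, FAT1 and DLG5, members of these lists, had 0 or 1 count in each library, too few to be tested. How reads were counted is not given, so these counts do not show that the genes were silent.

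AP-1 subunits, whose motif lies between the TEAD matches of ANKRD1, gave no call either. Of 10 listed, 9 were tested, and 0 passed by edgeR, beside 2.60% of all tested genes. DESeq2 and limma-voom also gave 0 calls, beside 6.50% higher and 5.18% lower, and 1.08% and 1.46%, of all genes. Both shSTAU1 libraries were below both controls for 3 of the 9 and above for 3, beside 28.0% and 28.5% of all tested genes. By edgeR, 4 of the 9 had an unadjusted p below 0.05, beside 3509 of all 14303. The median log2 fold change was -0.016. JUN had 50.3 and 41.2 CPM in Ctrl and 29.1 and 33.1 CPM in shSTAU1 (log2 fold change -0.56, SE 0.17, adjusted p = 0.0976 by edgeR). FOSL1 had 40.2 and 32.6 CPM in Ctrl and 47.9 and 41.0 CPM in shSTAU1 (0.29, SE 0.17, adjusted p = 0.326), and FOSL2 had 46.0 and 49.4, then 47.3 and 34.8 CPM (-0.22, SE 0.18, adjusted p = 0.486). Both knockdown libraries were below both controls for JUN and above them for FOSL1, and FOSL2 overlapped between the groups.

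Cytoskeletal target genes of SRF and its MRTF coactivators, which respond to actin and share targets with YAP1, had positive log2 fold changes in 14 of the 16 tested. Over all tested genes, 7211 of 14303 had a log2 fold change above 0. Of 17 listed, 16 were tested, and 1 rose and 0 fell by edgeR, beside 1.13% and 1.48% of all tested genes. DESeq2 called 4 higher and 0 lower (6.50% and 5.18% of all genes), limma-voom 1 higher and 0 lower (1.08% and 1.46%). An unadjusted p below 0.05 by edgeR was found for 8, beside 3509 of all 14303. Both shSTAU1 libraries were above both controls for 11 of the 16 and below for 1, beside 28.5% and 28.0% of all tested genes, and the median log2 fold change was 0.28. The cytoplasmic actin ACTG1 rose from 3254 and 4103 CPM to 6627 and 6763 CPM, to 182% of its control mean (log2 fold change 0.86, SE 0.14, adjusted p = 0.0358 by edgeR). This call was lost without the filter (adjusted p = 0.0988), with the length and GC correction (adjusted p = 0.0546), without Ctrl replicate 1 (adjusted p = 0.490) and without Ctrl replicate 2 (adjusted p = 0.0599). The actin ACTB had a log2 fold change of 0.40 (SE 0.12, adjusted p = 0.104 by edgeR) and the myosin MYH9 0.10 (SE 0.11, adjusted p = 0.608).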

How the data were processed

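The authors deposited a table of whole-number counts per gene, not normalized, for 4 libraries. The submitters' processing notes name hg38 and Partek. How reads were counted, with which strand setting and annotation, is not given in the sources used here. All 4 columns were matched to samples by their labels. Of 67008 identifiers, 58516 are in GENCODE 29 (99.87% of the counts), and 42005 matched a symbol in the name tables. Positions and exon lengths come from that annotation, which may not be the authors' release. The 45 entries for the second copy of pseudoautosomal genes held 0 counts.

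From the deposited counts, genes were filtered with filterByExpr, which left 14303 genes with 99.94% of the counts, and libraries were scaled by TMM. The main test was the quasi-likelihood test of edgeR 4.0.16 (R 4.3.3), with p-values adjusted by Benjamini-Hochberg over all tested genes and called below 0.05. CPM values are TMM-scaled. The biological coefficient of variation was 19.1%. Libraries of a group differed beyond counting noise (chi-square divided by its degrees of freedom, 23.4 in Ctrl and 56.37 in shSTAU1). Each was counted as a replicate, though such a spread may be technical and does not show separate cultures. The models were tested on simulated data. Alternatives were DESeq2 1.42.0, limma-voom (limma 3.58.1), library size scaling, no filter, the replicate number as a block, corrections for transcript length and GC content (known for 99% of tested genes), a threshold of 0.10, leaving out each library, and levels by longest transcript. Levels by coding length were added after seeing the data.

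The 10 genes, the 5 lists (76 genes, 70 tested) and the markers were chosen with earlier results of these data known, so their counts are no independent support. In each list, genes past the threshold are named, and the most abundant until 3 are named. Profiles near to ANKRD1 are from the 5 with the smallest Euclidean distance of centred log2 CPM. Some genes that these rules cover are not reported here. A protein comparison of the paralogs is not analysed here.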

Additional observations from a re-analysis of the deposited data

How the results depend on the processing

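The log2 fold change of ANKRD1 (-3.15) kept its sign with DESeq2 (-3.14), library size scaling (-3.20), no filter (-3.16), limma-voom (-3.11) and the length and GC correction (-3.31), and when single libraries were left out it ran from -3.46 to -2.75. The 372 calls became 1437 with DESeq2, 11 without a filter on low counts (3582 at an unadjusted p below 0.05), 176 with the length and GC correction, 1585 at an adjusted threshold of 0.10, and 0 to 2780 when single libraries were left out. They were 0 without Ctrl replicate 1 (1502 at an unadjusted p below 0.05), 64 without Ctrl replicate 2, 2780 without shSTAU1 replicate 1 and 2203 without shSTAU1 replicate 2. With a library left out, the lone library of its group is assumed to vary like the other group. Without a filter the split was 2 higher and 9 lower. The 4 list genes called became 10 with DESeq2, 0 without a filter, 2 with the length and GC correction, and 0 to 16 when single libraries were left out.

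With a replicate block, 4087 genes were called, 3295 with the block and the length and GC correction, and 22 and 20 of the list genes. The block put 5 of the 10 YAP/TEAD genes among its lower calls (ANKRD1, CCN1, WWTR1, YAP1 and LATS2), where it called 1879 of all 14303 genes lower. The groups share replicate numbers, but the labels do not say what a number stands for, and the same-number deviations correlated at 0.271 over genes. ANKRD1 had -3.11 under the block and -3.27 with the block and the correction.

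The 9 other genes gave 99 values under the alternatives. Of these values, 88 moved by less than the spread between replicates, and 7 changed sign (AJUBA, AMOTL2 and CCN2). Leaving out a library from a group of 2 can move a log2 fold change by little more than that spread. For the values with a library left out, this comparison therefore cannot tell whether a gene's result depends on that library. Values of TEAD1 and TEAD4 were among those that moved by more than the replicate spread. With the length and GC correction, TEAD4 had 0.073 (0.24 in the main fit) and TEAD1 had -0.056 (-0.15 in the main fit). The 4 called list genes kept their direction in all 44 values and lost the call in 14. The ratio of YAP1 to WWTR1 in Ctrl was 11.1 by longest transcript and 10.2 by coding length, TEAD1 to TEAD4 was 0.837 and 3.49, LATS1 to LATS2 was 2.26 by coding length, and CCN1 to ANKRD1 was 2.39 by longest transcript. The median of the AP-1 list was 0.064 without Ctrl replicate 2. Of these shifts, the cause was not tested. With 2 libraries per group, a group's spread rests on a single difference.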

Other observations

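A pair of 7-base words, AAGAGAA and AGAGAAA, were picked earlier on these same fold changes in 3′ untranslated regions, so the values here support nothing. At least 1 of them was present in the 3′ untranslated region of 31.65% of 11728 tested genes, and in 5 of the 10 YAP/TEAD genes. ANKRD1 held 2 copies in 770 bases, where 21.0% of the 4397 tested genes of similar length hold a word. WWTR1, TEAD1 and AJUBA also held 2 copies and CCN1 held 1. At least 1 copy is held by 60.4%, 21.9%, 47.1% and 24.0% of the genes similar in length to these, in that order. None was found for YAP1, TEAD4, LATS2, AMOTL2 or CCN2, where these shares ran from 7.20% (TEAD4) to 59.7% (YAP1).

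The tumour suppressor NF2, an upstream activator of the Hippo kinases, had 172 and 212 CPM in Ctrl and 246 and 316 CPM in shSTAU1 (log2 fold change 0.55, SE 0.17, adjusted p = 0.104 by edgeR, n = 2 per group). TGFB2, a ligand listed among the YAP targets, had 53.1 and 59.9 CPM in Ctrl and 28.7 and 35.8 CPM in shSTAU1 (log2 fold change -0.81, SE 0.17, adjusted p = 0.0510). SRF itself had 29.6 and 33.7 CPM in Ctrl and 48.6 and 51.8 CPM in shSTAU1 (log2 fold change 0.66, SE 0.15, adjusted p = 0.0599). All 3 were chosen after their values were seen, each missed the threshold, and in each the groups did not overlap.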
